A study of Mus musculus with 24 samples.

Results

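Chromatin accessibility before induction was compared between mouse embryonic stem cell lines that carry an inducible transgene of the long noncoding RNA Firre and their control lines. All 4 libraries with a time of 0 min were taken, of 23 libraries with counts and 24 described in the labels, and they formed 2 pairs by background. The assay was ATAC-seq, where a transposase cuts and tags open chromatin, and its values are counts in 145143 consensus peaks. The other 19 libraries, from 30 to 150 min after doxycycline, set the spread of a difference between lines and served as other libraries in which differences at 0 min were looked up.

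The knockout Firre line (KO Firre line) has the Firre gene knocked out and carries the inducible transgene, and the KO control line has the knockout alone in its genotype label. The Firre line without the knockout (WT Firre line) carries the inducible transgene on an intact Firre gene, and the WT control line is labelled wild type. Every line had 1 library at 0 min, all lines were grown on gelatin with LIF and inhibitors of MEK and GSK3, and every library carries the treatment label doxycycline. The labels call the controls genetically matched and do not give the sequence or the promoter of the transgene, its place of insertion, the construct in the controls or whether a line is 1 clone. Transgene, clone and culture therefore cannot be told apart at 0 min, and the p-values below reflect how much these libraries vary, with 1 library a line at 0 min and no separate cultures described.

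Firre is transcribed from the X chromosome, and its RNA is retained in the nucleus, where its repeats bind the nuclear matrix protein Hnrnpu. In doxycycline systems a drug-dependent transactivator switches the transgene on, and transcription without the drug is known as leak. A difference at 0 min can thus be one that the lines already had, which a comparison at later times alone does not separate from a response to induction.

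Firre was among the few genes with a called peak before induction, 1 in exon 18 of 20 (X:50569280-50570236, mm10, as in the deposited peak annotation). The level of this peak was 12.7 counts per 1000000 on scaled library sizes (CPM) in the KO Firre line, against 8.24 CPM in the KO control line. In the wild type background it was 13.02 CPM in the Firre line, against 2.29 CPM in the control line, a ratio of 5.68. Both Firre lines at 0 min were above all 6 libraries of their control line over the whole time course, which ran from 4.18 to 9.60 CPM in the KO control line and from 1.35 to 2.72 CPM in the WT control line.

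The mean difference of the exonic Firre peak over both backgrounds was 1.56 ± 0.26 on the log2 scale (SE), and it passed (edgeR adjusted p = 0.00306). It was 2.50 ± 0.41 in the wild type background (edgeR adjusted p = 0.00188) and 0.62 ± 0.31 in the knockout background (edgeR adjusted p = 0.867). The difference between backgrounds was -1.88 ± 0.54, knockout minus wild type, and did not pass (edgeR adjusted p = 0.586). The call of the mean ended in 8 of 34 alternatives, among them DESeq2 (adjusted p = 1), limma-voom (adjusted p = 0.256), total counts in place of TMM scaling (adjusted p = 0.998) and either wild type library at 0 min left out, where the value is that of the knockout background alone. Of these 34, 19 left out 1 library of 30 to 150 min, and none of those ended the call. The call in the wild type background ended in 6 of 30 alternatives, DESeq2 and limma-voom included, with values between 2.45 and 2.87. Of these 30, 21 left out 1 library outside the wild type pair at 0 min, and all 6 losses were among the rest.

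At 0 min the exonic Firre peak was below its level after doxycycline in both Firre lines. From 30 to 150 min it averaged 18.6 ± 3.31 CPM (SD, n = 5) in the KO Firre line, against 7.08 ± 2.50 CPM (n = 5) in the KO control line. It averaged 28.9 ± 6.37 CPM (n = 4) in the WT Firre line, against 2.02 ± 0.52 CPM (n = 5) in the WT control line. The value at 0 min lay below the lowest later value in both Firre lines, 15.3 CPM with the knockout and 22.2 CPM without it. The log2 difference at 0 min minus that at 30 to 150 min was -1.01 ± 0.33 and did not pass (edgeR adjusted p = 1). In the KO control line, whose genotype label names no transgene, the peak was also above that of the WT control line, while most other Firre peaks there had no count, and this was not tested. Since the labels give no transgene sequence, counts from the gene and from the transgene cannot be told apart at this peak.

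**Figure D1:**
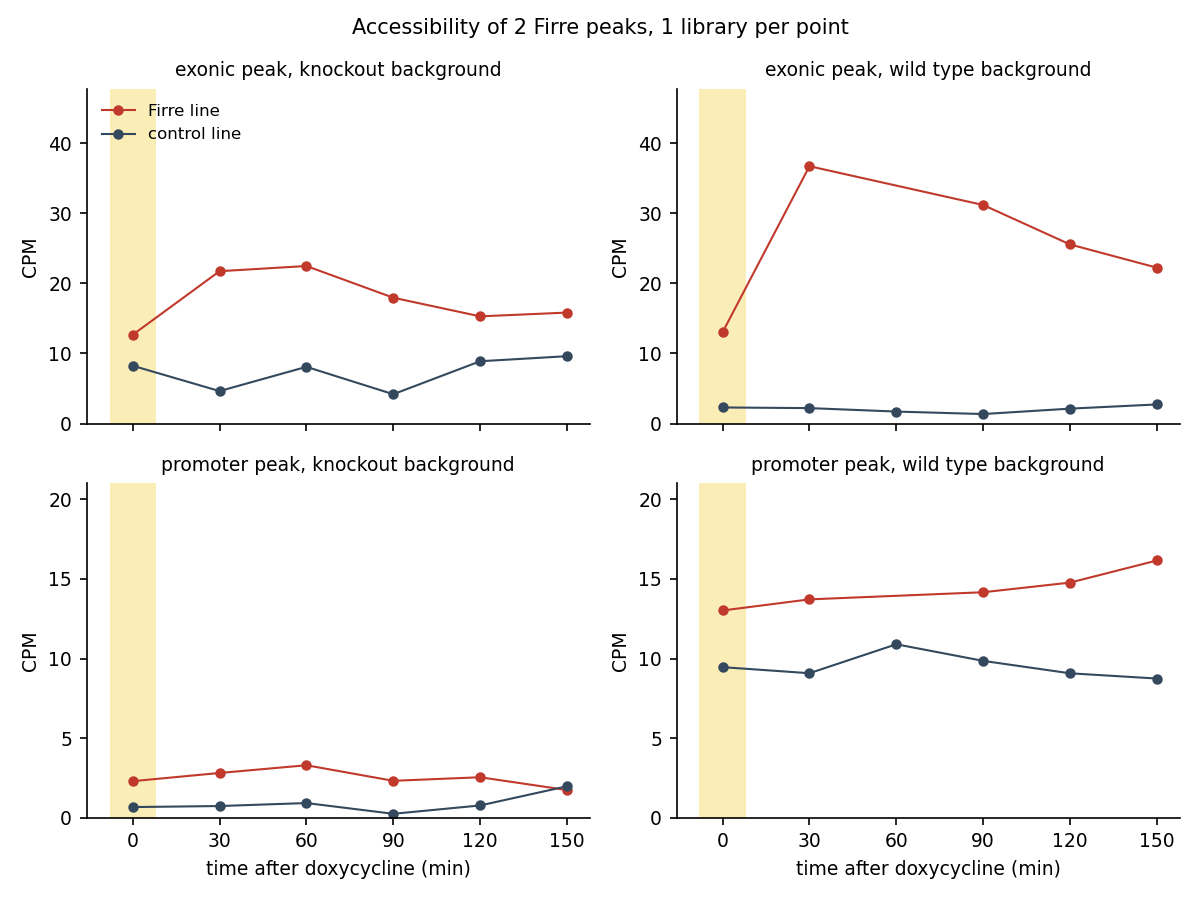
The level in CPM of the exonic (top) and promoter (bottom, X:50634917-50635918) peaks of Firre against time after doxycycline in min, with 1 library per point and 0 min shaded. The Firre lines lie above the control lines at 0 min in all 4 panels, and the exonic peak is higher at every later time in both Firre lines than at 0 min.

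Of the Firre peaks annotated as promoter, that at X:50560507-50561558 had 0 counts in both knockout lines at 0 min. In the wild type pair it had 5.45 CPM in the Firre line, against 5.30 CPM in the control line. That log2 difference was 0.04 ± 0.36 (edgeR adjusted p = 0.997). The other, at X:50634917-50635918 and called the promoter peak here, had 2.30 CPM in the KO Firre line, against 0.68 CPM in the KO control line. It had 13.02 CPM in the WT Firre line, against 9.46 CPM in the WT control line. The mean log2 difference at 0 min was 1.10 ± 0.37 and did not pass (edgeR adjusted p = 0.999), with counts of 16 against 5 in the knockout pair. Both Firre lines were above all 6 libraries of their control line. At 30 to 150 min the peak passed in the knockout background, at 1.33 ± 0.27 (edgeR adjusted p = 0.00181), and in the wild type background, at 0.66 ± 0.12 (edgeR adjusted p = 0.000317), while the mean difference at 0 min minus the later one was 0.10 ± 0.41 (edgeR adjusted p = 1).

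The sequence of this promoter is shown because its peak moved with the transgene label in both backgrounds. It is the RefSeq window of GRCm38.p6 on the minus strand, X:50635272-50635571, which lies within the promoter peak. Capitals mark an E-box, CACGTG, at position 180 of the window and a GC box, GGGCGG, at position 257, both counted from 1 at the 5′ end. On either strand and with no overlap between the motifs here, the E-box is in 7.15% and the GC box in 35.7% of 32851 promoter windows of the same length.
Firre promoter: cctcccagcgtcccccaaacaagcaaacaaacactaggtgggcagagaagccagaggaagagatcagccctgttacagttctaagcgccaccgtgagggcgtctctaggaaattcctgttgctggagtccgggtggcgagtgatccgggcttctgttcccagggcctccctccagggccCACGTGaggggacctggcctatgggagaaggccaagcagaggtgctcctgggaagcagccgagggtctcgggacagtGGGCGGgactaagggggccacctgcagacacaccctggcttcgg

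The rest of the Firre gene followed the genotype labels. Of 19 peaks annotated to Firre, 14 had 0 counts in both knockout lines at 0 min. The 18 peaks other than the exonic one summed to 3.60 CPM in the KO Firre line, against 1.22 CPM in the KO control line. They summed to 103.2 CPM in the WT Firre line, against 85.1 CPM in the WT control line. In the wild type pair 14 of the 18 were higher in the Firre line and 4 were lower, with a median log2 difference of 0.21 and a range of -0.58 to 1.08. None of these 18 passed by edgeR, and 3 had an unadjusted p under 0.05, in the intron peak at X:50580144-50580812, the peak at an annotated transcript end at X:50614501-50615470 and the intron peak at X:50620001-50621065, all higher in the Firre line.

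Over the genome few peaks differed before induction. Of 129515 tested peaks, edgeR called 2 for the mean of both backgrounds, both higher (0.00154%), DESeq2 called 1 and limma-voom 1. In the knockout background edgeR called 0 (0%), as did DESeq2 and limma-voom, with a smallest adjusted p of 0.301. In the wild type background edgeR called 4 (0.00309%), 3 higher (0.00232%) and 1 lower (0.000772%). There limma-voom called 4, of which 2 were higher and only 1 was also called by edgeR, and DESeq2 called 1. The peak at mt-Tr, described below, was the 1 peak that all 3 tools called. An unadjusted p under 0.05 was found for 5839 peaks for the mean (4.51%), 7439 in the knockout background (5.74%) and 6400 in the wild type background (4.94%). The median SE was 0.29 for the mean, 0.41 in the knockout background and 0.40 in the wild type background on the log2 scale. With 1 library a line, differences of several SE did not pass, such as that of a peak near Ctsl in the knockout background, at 2.28 ± 0.51.

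The 4 libraries were close in depth. Total counts in peaks ran from 6691742 to 7504795. On the scaled library sizes a count of 0 in 1 library allows up to between 0.3984 and 0.4315 CPM. This is from a floor of 3 counts that covers counting error only. Promoter peaks, those within 1000 bp of an annotated transcription start site (TSS), held 40.9% of counts in the KO Firre line, against 41.0% in the KO control line. They held 39.8% in the WT Firre line, against 38.1% in the WT control line. The median log2 difference of all 22024 promoter peaks moved with these shares, at -0.04 in the knockout background and 0.07 in the wild type background. With that share as a covariate the mean still had 2 calls and the wild type background had 2. Of the markers of embryonic stem cells, Pou5f1, which encodes Oct4, had an open promoter peak in all 4 lines. This peak had 24.6 CPM in the KO Firre line, against 24.2 CPM in its control, and 24.6 CPM in the WT Firre line, against 19.1 CPM in its control.

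The call with the smallest p at 0 min was on the mitochondrial genome and in the wild type pair. A peak at mt-Tr (M:9384-9894), the mitochondrial gene of an arginine tRNA, had 1279 CPM in the WT Firre line, against 6.73 CPM in the WT control line. The log2 difference was 7.57 ± 0.35 (edgeR adjusted p = 1.10e-53), and DESeq2 and limma-voom called it too. In the knockout background the same peak had 13.1 CPM in the Firre line, against 19.3 CPM in the control line, a log2 difference of -0.56 ± 0.46 (edgeR adjusted p = 0.932). It was the second of the 2 calls for the mean, and that call rests on the wild type pair. The WT Firre line also held 1180 to 1825 CPM at later times, against 5.25 to 8.80 CPM in all 6 libraries of the WT control line. Mitochondrial peaks held 4.75% of all counts in the WT Firre line at 0 min, against 4.41% in the WT control line. The mt-Tr peak took 2.72% of these mitochondrial counts in the WT Firre line, against 0.0159% in the WT control line. The other 2 mitochondrial peaks were much closer: the first, at M:121-6486, had 25049 CPM in the WT Firre line, against 23073 CPM in the WT control line. Those 2 peaks span 6366 and 5227 bp and the mt-Tr peak spans 511 bp, and CPM are not corrected for width. How reads map to the mt-Tr stretch was not tested. Nor was it tested which lines depart there from the rest of the mitochondrial genome.

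Of the 2 other calls in the wild type background, 1 was seen again later and 1 was not. A peak on a contig outside the numbered chromosomes had 11.02 CPM in the WT Firre line, against 3.44 CPM in the WT control line, a log2 difference of 1.68 ± 0.33 (edgeR adjusted p = 0.0367). At 30 to 150 min the difference was 1.85 ± 0.17 (edgeR adjusted p = 2.59e-19). All 7 tested peaks of the contig were higher in the WT Firre line at 0 min, and 6 of them passed at later times. Together they held 30.1 CPM in the WT Firre line, against 12.3 CPM in the WT control line, and 12.8 CPM in the KO Firre line, against 9.32 CPM in the KO control line. The lower call lies in intron 1 of 17 of Mtmr3, which encodes a lipid phosphatase (11:4582100-4582405), with 1 count in the WT Firre line, against 25 counts in the WT control line. Its log2 difference was -4.60 ± 0.92 (edgeR adjusted p = 0.0367) at 0 min and -0.57 ± 0.33 (edgeR adjusted p = 0.729) later, with 1.12 ± 0.18 CPM (SD, n = 4) in the WT Firre line, against 1.77 ± 0.43 CPM (n = 5) in the WT control line. Both calls ended with DESeq2, with limma-voom and with the promoter share of counts as a covariate.

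Most peaks that passed in the wild type background at later times, in libraries not shared with 0 min, had the same sign at 0 min, though few passed there. Some did not have the same sign, such as the peak in Pde6d, at -0.39 ± 0.27 at 0 min. The promoter peak of Btaf1, an ATPase that moves the TATA-binding protein (19:36925519-36926756), had 38.5 CPM in the WT Firre line, against 23.6 CPM in the WT control line at 0 min. Its log2 difference was 0.70 ± 0.21 at 0 min (edgeR adjusted p = 0.978) and 0.79 ± 0.10 later (edgeR adjusted p = 7.06e-10). A peak near the start of Cd59a, which encodes an inhibitor of complement lysis (2:104095762-104097393), had 10.1 CPM in the WT Firre line, against 5.45 CPM in the WT control line, with 0.89 ± 0.30 at 0 min (edgeR adjusted p = 0.978) and 0.91 ± 0.15 later (edgeR adjusted p = 2.22e-05). For both, the WT Firre line at 0 min was above all 6 libraries of its control line, but the later ones of these took part in choosing the peaks.

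Among the peaks that passed as lower later in the wild type background were the following. The promoter peak of 2410141K09Rik (13:66440864-66441695) had 3.85 CPM in the WT Firre line, against 8.17 CPM in the WT control line, a log2 difference of -1.08 ± 0.35 at 0 min (edgeR adjusted p = 0.978) and -0.89 ± 0.15 later (edgeR adjusted p = 1.87e-05). It lies in a segment (13:66304811-66499602), chosen after its values were seen, in which all 22 tested peaks were lower in the WT Firre line at 0 min, with a median of -0.73, and 20 of 22 were lower later, with a median of -0.78. In the knockout background the median of the segment was -0.20 at 0 min and 0.06 later. An intergenic peak whose nearest TSS is that of Gm7986 (12:72032723-72033796) had 2.26 CPM in the WT Firre line, against 7.88 CPM in the WT control line, with -1.80 ± 0.40 at 0 min (edgeR adjusted p = 0.206) and -1.88 ± 0.19 later (edgeR adjusted p = 1.47e-15). The intergenic peak near Ldhb, which encodes a subunit of lactate dehydrogenase (6:142518945-142519528), was the 1 of the 20 lower peaks with the opposite sign at 0 min, and it was chosen for that after its values were seen. It had 3.19 CPM in the WT Firre line, against 2.72 CPM in the WT control line, with 0.23 ± 0.47 at 0 min (edgeR adjusted p = 0.982) and -1.09 ± 0.23 later (edgeR adjusted p = 0.0115).

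**Figure D2:**
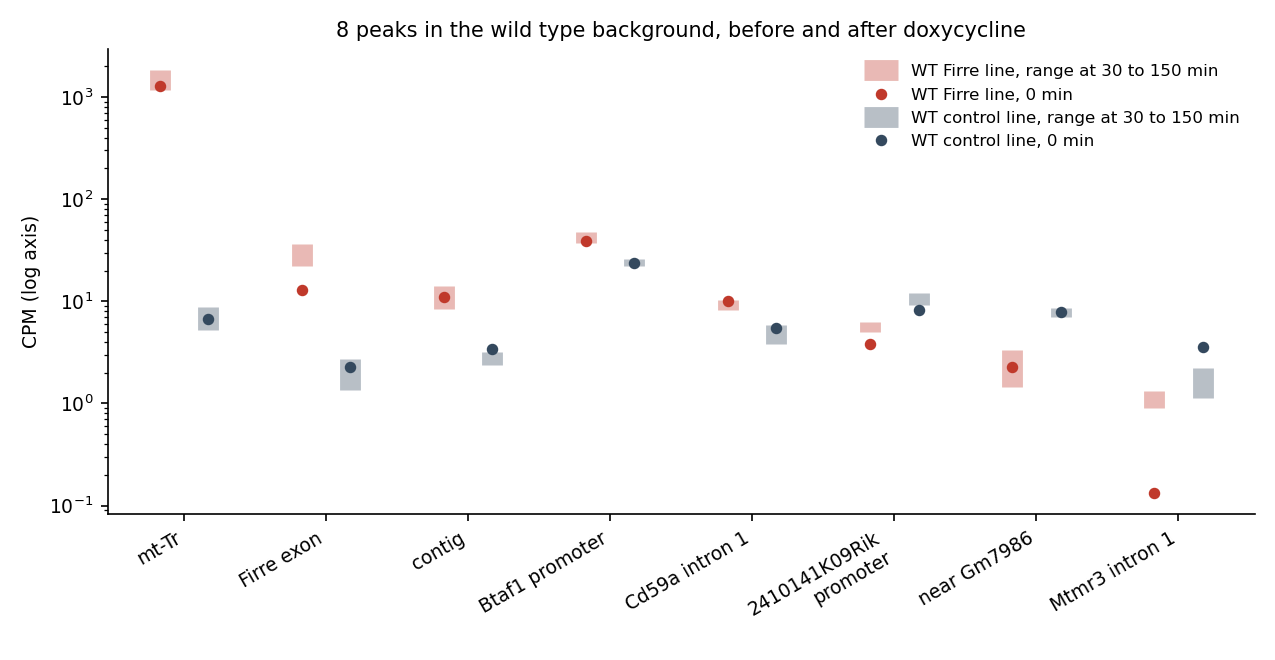
The level in CPM, on a log axis, of 8 peaks in the WT Firre line and the WT control line, with points for 0 min and bars for the range at 30 to 150 min. At 0 min mt-Tr had 1279 CPM in the Firre line, against 6.73 CPM in the control line, and the Mtmr3 peak is the one whose point at 0 min lies far below the later range of its line.

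In the knockout background the peaks with the smallest p at 0 min did not pass and showed smaller differences later. The promoter peak of Gins3, a subunit of the complex that unwinds DNA at replication forks (8:95632891-95634153), had 9.06 CPM in the KO Firre line, against 19.999 CPM in the KO control line. Its log2 difference was -1.14 ± 0.25 (edgeR adjusted p = 0.301) at 0 min and -0.05 ± 0.10 (edgeR adjusted p = 0.909) later. A peak near Gm50393 had 8.92 CPM in the KO Firre line, against 2.70 CPM in the KO control line, with 1.72 ± 0.36 at 0 min (edgeR adjusted p = 0.301) and 0.30 ± 0.15 later (edgeR adjusted p = 0.404). Peaks near Gm49319, at 1.99 ± 0.45, and near Ctsl, which encodes a lysosomal protease, at 2.28 ± 0.51, also had an edgeR adjusted p of 0.301. The 1 that passed later was an intergenic peak near 9030404E10Rik (16:30045577-30046369), with 2.59 CPM in the KO Firre line, against 8.11 CPM in the KO control line. Its difference was -1.64 ± 0.38 at 0 min (edgeR adjusted p = 0.301) and -1.003 ± 0.169 later (edgeR adjusted p = 4.91e-05).

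For the mean of both backgrounds no peak passed as lower. The smallest p belonged to a peak in intron 5 of 15 of Zfhx3, a zinc finger homeobox transcription factor (8:108665924-108666639). It had 3.02 CPM in the KO Firre line, against 8.65 CPM in the KO control line, and 1.99 CPM in the WT Firre line, against 4.44 CPM in the WT control line. Both Firre lines at 0 min were below all 6 libraries of their control line. The mean log2 difference was -1.33 ± 0.29 (edgeR adjusted p = 0.34), and at 30 to 150 min the knockout pair passed at -0.73 ± 0.16 (edgeR adjusted p = 0.00383) while the wild type pair had -0.69 ± 0.18 (edgeR adjusted p = 0.141). A peak in intron 3 of 3 of Ston2, an endocytic adaptor, had a mean of -1.21 ± 0.28 at 0 min (edgeR adjusted p = 0.831), and -0.08 ± 0.19 and 0.25 ± 0.20 later in the knockout and wild type backgrounds. The peak in intron 16 of 23 of AU040320 had -1.08 ± 0.27 at 0 min (edgeR adjusted p = 0.999).

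The 2 backgrounds did not share a pattern at 0 min. The log2 differences of the knockout and wild type pairs had the same sign in 47.3% of the 129515 tested peaks and in 39.0% of 14856 abundant peaks, those above 4 on the log2 CPM scale. Across peaks, which are not independent replicates, Pearson's r was -0.05 over all tested peaks and -0.08 over the abundant ones. A test of the difference between backgrounds called 1 peak (0.000772%), mt-Tr, at -8.13 ± 0.63 for knockout minus wild type (edgeR adjusted p = 1.42e-24).

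Most peaks that passed as higher in both backgrounds after doxycycline were, outside Firre, near zero difference before it on the mean of both backgrounds. At 30 to 150 min, 13 peaks were called in both backgrounds separately (0.01%), which is 1.38% of the calls in the knockout background and 14.3% of those in the wild type background, and all 13 were higher in the Firre lines. Apart from the exonic and promoter peaks of Firre, 11 remained, and 0 of these were promoter peaks. Their median log2 difference later was 1.04 in the knockout background and 0.94 in the wild type background. At 0 min it was 0.20 in the knockout background, with 8 of 11 above zero, and -0.00 in the wild type background, with 5 of 11 above zero. None of the 11 passed by edgeR for the mean at 0 min, and 1 had an unadjusted p under 0.05. In the knockout background the largest at 0 min were Kalrn at 1.39 ± 0.88, 4930488N15Rik at 0.88 ± 0.49 and Rapgef4 at 0.84 ± 0.40. These peaks and those of Pde6d and Dpf2 were above all 6 KO control libraries at 0 min, and the rest of the 11 were not. In the wild type background only the Kalrn and 4930488N15Rik peaks were above all 6. The later control libraries of both backgrounds took part in choosing the 11 peaks, so these comparisons are a description with no test.

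Pde6d, which encodes a carrier of prenylated proteins, holds one of these peaks, in intron 1 of 3 (1:86549363-86551159), with the TSS of Ptma the nearest. At 0 min it had 10.5 CPM in the KO Firre line, against 9.73 CPM in the KO control line, and 8.77 CPM in the WT Firre line, against 11.5 CPM in the WT control line. Later it averaged 18.4 ± 2.37 CPM (SD, n = 5) in the KO Firre line, against 8.76 ± 0.86 CPM (n = 5) in its control. In the wild type background the later means were 16.2 ± 1.64 CPM (n = 4) in the Firre line, against 8.86 ± 1.04 CPM (n = 5) in the control line. The log2 difference at 0 min minus that at 30 to 150 min was -1.15 ± 0.21, the 1 call of that test over all peaks (0.000772%, edgeR adjusted p = 0.0135), although DESeq2 called 0 peaks and the later values that chose this peak are part of the test. The call ended without the WT control or Firre library of 150 min (adjusted p = 0.0537 and 0.0518), without the KO control of 120 min (0.0501) and without any of the 4 libraries at 0 min.

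Rapgef4, a cAMP-activated exchange factor for Rap GTPases, and Apod, a lipid-binding apolipoprotein, had the next values. The Rapgef4 peak (2:71983023-71984048) had 5.32 CPM in the KO Firre line, against 2.97 CPM in the KO control line, and 3.72 CPM in the WT Firre line, against 3.73 CPM in the WT control line. Later it averaged 14.1 ± 3.95 CPM (n = 5) in the KO Firre line, against 4.002 ± 0.619 CPM (n = 5) in its control, and 12.5 ± 3.70 CPM (n = 4) in the WT Firre line, against 3.66 ± 0.70 CPM (n = 5) in its control. The Apod peak (16:31299422-31301637) had 23.6 CPM in the KO Firre line, against 25.3 CPM in the KO control line, and 18.5 CPM in the WT Firre line, against 24.5 CPM in the WT control line. The difference at 0 min minus that later was -1.41 ± 0.32 for Rapgef4 (edgeR adjusted p = 0.524) and -0.83 ± 0.17 for Apod (edgeR adjusted p = 0.165). Apod passed in 5 of 32 alternatives, with an adjusted p of 0.0243 with total counts, 0.00851 with a covariate for promoter share and 0.00248 with loess offsets. It also passed without the WT control or Firre library of 30 min (0.0449 and 0.0488).

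The other 8 peaks lay near or within genes of varied roles. Those in Dpf2, a subunit of BAF chromatin remodellers, Ywhag, a 14-3-3 protein, Pvalb, a calcium-binding protein, and near Bbs4, a subunit of the ciliary BBSome, had mean log2 differences at 0 min of 0.19 ± 0.33, -0.14 ± 0.24, 0.00 ± 0.39 and -0.02 ± 0.20. Those near Gm15516 and AC154542.1 had 0.05 ± 0.44 and 0.20 ± 0.31, and the peak in the last exon of Kalrn had 0.72 ± 0.59. The peak near 4930488N15Rik (8:115477161-115478623) had 0.88 ± 0.49 and 0.83 ± 0.50 at 0 min in the knockout and wild type backgrounds, where it passed in neither (edgeR adjusted p = 0.886 and 0.978), and 1.04 ± 0.22 and 1.07 ± 0.23 later. Like the Kalrn peak, it was above all 6 control libraries in both backgrounds at 0 min, though the later ones took part in choosing these peaks. For Kalrn in the wild type background the level was 9 counts, against at most 8 in a control library, with a log2 difference of 0.06 ± 0.76. The level of the peak near 4930488N15Rik at 0 min was 3.74 CPM in the KO Firre line, against 2.03 CPM in the KO control line. It was 3.59 CPM in the WT Firre line, against 2.01 CPM in the WT control line.

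**Figure D3:**
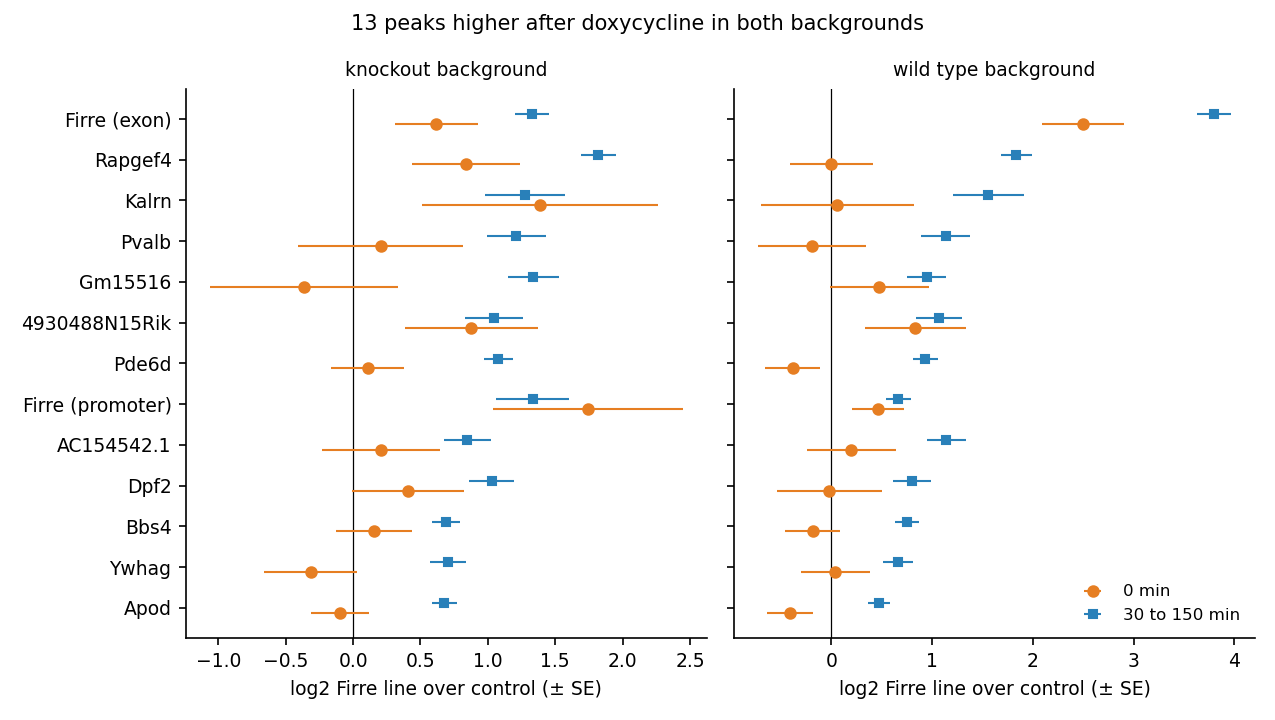
The log2 difference between Firre line and control (± SE) at 0 min and at 30 to 150 min for the 13 peaks called in both backgrounds at later times, which chose them. The exonic Firre peak at 2.50 in the wild type background stands apart at 0 min, while the median of the 11 peaks outside Firre at 0 min is 0.20 with the knockout and -0.00 without it.

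To set 0 min against a single later time that had no part in the choice, peaks were called in both backgrounds from the other later times. Without 30 min, 8 peaks outside Firre were called (0.00618%), and all 8 were higher in the Firre lines. At 30 min, all 8 were again higher, with a median of 0.55, whereas at 0 min 4 of 8 were higher, with a median of 0.02. With 90, 120 and 150 min left out in turn, 5 (0.00386%), 6 (0.00463%) and 5 (0.00386%) peaks were called. Their medians were 0.99, 0.94 and 0.94 at the time left out, against 0.00, 0.02 and 0.19 at 0 min. The value at the time left out was above that at 0 min in 8 of 8, 5 of 5, 6 of 6 and 4 of 5 peaks. These lists share most of their libraries with each other, so they are a description with no test.

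Counting all peaks called at later times in a background, among them the 13 called in both, most had the same sign at 0 min. In the knockout background, 942 peaks were called at 30 to 150 min (0.727%), 585 higher (0.452%) and 357 lower (0.276%), and the count was 309 to 626 without any 1 of the 10 later libraries of that background, with the lowest without the KO control of 30 min. It was 128 without the KO controls of 30 and 90 min together, and DESeq2 called 9. At 0 min 458 of the 585 higher peaks (78.3%) and 282 of the 357 lower peaks (79.0%) had the same sign, against 55.2% and 55.5% of all tested peaks with those later signs. Their median log2 difference was 0.59 later and 0.30 at 0 min for the higher peaks, and -0.58 later and -0.27 at 0 min for the lower ones. An unadjusted p under 0.05 in the same direction at 0 min was found for 84 and 69 of them (14.4% and 19.3%, against 3.95% and 3.47% of all tested peaks with those later signs), and 0 passed by edgeR, DESeq2 or limma-voom. The spread behind these p-values at 0 min comes from the later pairs, which also chose the peaks. The shares of called peaks and of all peaks are therefore not on equal terms.

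For the wild type background 91 peaks were called later (0.0703%), 71 higher (0.0548%) and 20 lower (0.0154%). The count was 34 to 44 without the WT control or Firre library of 90 or of 150 min, 23 with the promoter share of each library as a covariate and 19 with DESeq2. At 0 min 63 of the 71 higher peaks (88.7%) and 19 of the 20 lower peaks (95.0%) had the same sign, against 55.1% and 53.9% of all peaks with those later signs. The medians were 0.72 later and 0.46 at 0 min for the higher peaks, and -0.89 later and -0.81 at 0 min for the lower ones. An unadjusted p under 0.05 in the same direction at 0 min was found for 29 of 71 and 12 of 20 (40.8% and 60%, against 2.93% and 3.14% of all peaks with those later signs), and 3 of the higher peaks passed at 0 min, those of Firre, mt-Tr and the contig. As in the knockout background, the spread behind these p-values comes from the later pairs that chose the peaks.

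Named examples from the knockout background showed both kinds. A peak near Fzd2, which encodes a Frizzled receptor for Wnt ligands (11:102594951-102596052), had 5.47 CPM in the KO Firre line, against 10.3 CPM in the KO control line at 0 min, below all 6 libraries of that control. The later ones of these 6 took part in choosing the peak. Its log2 difference was -0.91 ± 0.30 at 0 min (edgeR adjusted p = 0.738) and -1.08 ± 0.15 later (edgeR adjusted p = 8.11e-08). The promoter peak of Bcr (10:75173331-75174268), had 4.31 CPM in the KO Firre line, against 2.16 CPM in the KO control line, with 0.99 ± 0.47 at 0 min and 0.96 ± 0.20 later. The promoter peak of Krt42, a type I keratin gene (11:100269855-100270104), was one without a difference of that size beforehand, with 3.16 CPM in the KO Firre line, against 2.97 CPM in the KO control line. Its log2 difference was 0.09 ± 0.46 at 0 min and -1.15 ± 0.24 later (edgeR adjusted p = 0.00212).

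These peaks were also set against a single later time of the same background. When each later time was left out and peaks were called from the rest, 75.8% to 82.4% of the peaks in the knockout background had the same sign at 0 min, and 75.0% to 90.5% at the time left out. Shares in the wild type background were 84.6% to 91.1% at 0 min and 81.2% to 100% at the time left out. The share was lower at 0 min than at the time left out except without 150 min in the knockout background (82.4% at 0 min, against 75.0%) and without 30 min in the wild type background (85.5%, against 81.2%). The median in the direction of the call was lower at 0 min except without 150 min in the knockout background (0.31, against 0.26). Among all tested peaks, 52.8% to 57.1% had the same sign at 0 min and 50.3% to 56.5% at the time left out, and these are descriptions with no test. The number of peaks called in this way was 304 to 816 (0.235% to 0.63%) in the knockout background and 69, 44, 65 and 45 (0.0533%, 0.034%, 0.0502% and 0.0347%) in the wild type background without 30, 90, 120 and 150 min.

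**Figure D4:**
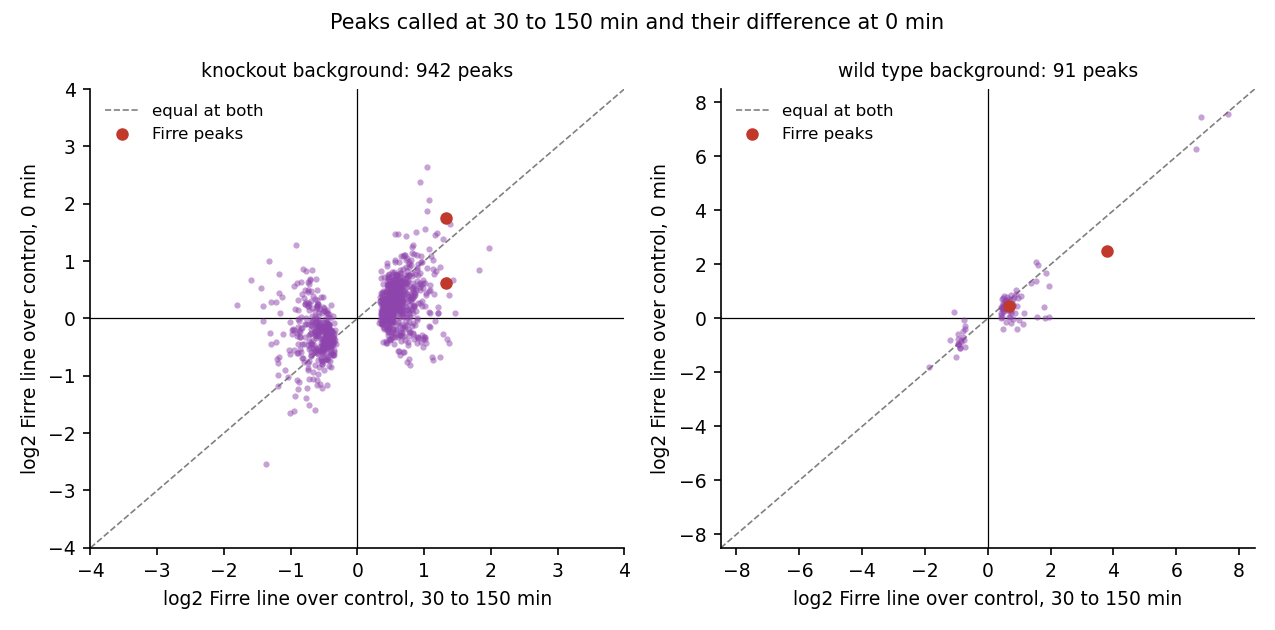
The log2 difference between Firre line and control at 0 min against that at 30 to 150 min, 1 point per peak called at later times in the knockout (942 peaks) or wild type (91 peaks) background, with Firre peaks in red and equal values dashed. Most points lie in the quadrants of equal sign, and the points above 6 in the wild type background are mt-Tr and peaks with 0 counts in the WT control line, whose fitted values are no bounds.

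The named gene lists held no call before induction. Their 280 tested promoter peaks, of 197 genes in 20 lists outside Firre, had 0 calls by edgeR, DESeq2 and limma-voom for the mean and in each background. Of all 22024 promoter peaks edgeR called 1 for the mean and 1 in the wild type background, mt-Tr both times (0.00454%), and 0 in the knockout background. An unadjusted p under 0.05 was found for 6 of the 280 for the mean (2.14%), 8 in the knockout background (2.86%) and 6 in the wild type background (2.14%). The medians of the lists for the mean ran from -0.09 to 0.11, beside 0.02 for all promoter peaks. The 26 promoter peaks of 20 core and naive pluripotency genes had a median of 0.02, 15 above and 11 below zero. By background their median was -0.04 with the knockout, 12 of 26 above zero, and 0.16 without it, 21 of 26 above zero, beside -0.04 and 0.07 for all promoter peaks. The 11 promoter peaks of Firre partners and chromatin architecture genes had medians of -0.01 and 0.26. In the knockout background 6 lists, and in the wild type background 3, had a median at 0 min outside the range of their later pairs. Sox2 had 50.6 CPM in the KO Firre line, against 45.5 CPM in its control, and 51.5 CPM in the WT Firre line, against 47.9 CPM in its control. The promoter peaks of lineage markers had medians of -0.09 for primitive endoderm (9 genes), -0.02 for trophoblast (8 genes) and -0.03 for mesoderm and neural markers (10 genes), and -0.00 for fibroblast markers of feeder cells (8 genes).

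Genes tied to Firre or to transgene insertion also had no call at 0 min, and those named here were closer in the knockout pair than in the wild type pair. Of genes described as touching the Firre locus in the nucleus, the promoter peak of Ppp1r10, a regulatory subunit of protein phosphatase 1, had 74.9 CPM in the KO Firre line, against 75.3 CPM in its control, and 80.9 CPM in the WT Firre line, against 67.5 CPM in its control. Ctcf, the insulator protein, had 45.3 CPM in the KO Firre line, against 44.1 CPM in its control, and 49.8 CPM in the WT Firre line, against 41.3 CPM in its control. The peak shared by the starts of Gt(ROSA)26Sor and Setd5, at a locus often used to place transgenes, had 82.4 CPM in the KO Firre line, against 89.2 CPM in its control, and 93.0 CPM in the WT Firre line, against 72.6 CPM in its control. The lists of genes in contact with Firre, of its partners and chromatin architecture, and of insertion loci had medians of 0.03, 0.11 and 0.02 for the mean, with 0 calls by edgeR. In the wild type background these medians were 0.11, 0.26 and -0.02, beside 0.07 for all promoter peaks. With the knockout they were -0.02, -0.01 and -0.12, beside -0.04. The stress and signalling lists had medians between -0.06, for Wnt targets, and 0.10, for p53 targets.

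Differences over whole chromosomes were small at 0 min. Over the autosomes and X, the median log2 difference of tested peaks ran from -0.09, on X, to 0.05, on chromosome 5, in the knockout background. It ran from -0.05, on chromosome 5, to 0.09, on X, in the wild type background. The medians lay outside the range of the later pairs for 6 of 20 chromosomes in the knockout background and 7 of 20 in the wild type background. Chromosome 11 was lower at every time in the knockout background, at -0.06 at 0 min and -0.11 to -0.04 later.

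**Figure D5:**
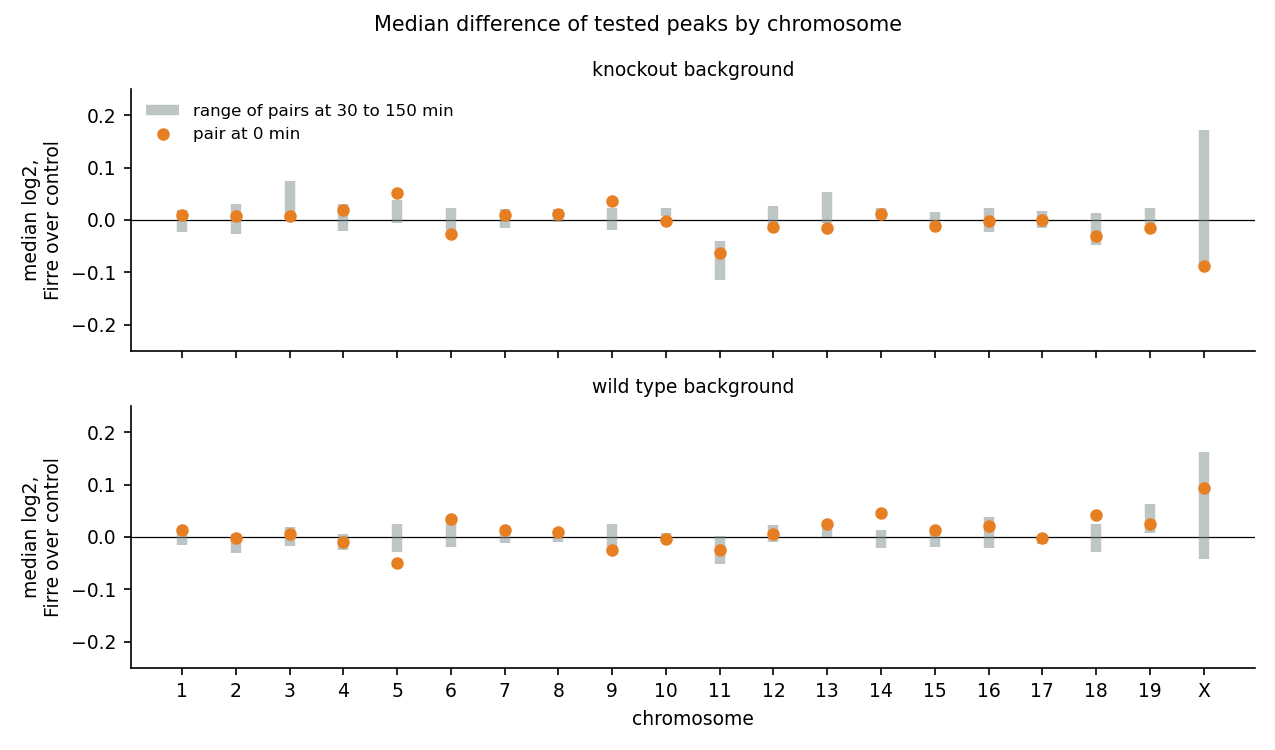
The median log2 difference between Firre line and control of the tested peaks of each chromosome, with points for the pair at 0 min and bars for the range of the pairs at 30 to 150 min. All points lie between -0.09 and 0.09, and the widest bars are those of X, from -0.09 to 0.17 with the knockout and from -0.04 to 0.16 without it.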

How the data were processed

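ATAC-seq reads were aligned to mm10, peaks were called with MACS2 2.2.7.1 and counted with featureCounts, per the submitters' processing notes. The authors deposited raw read counts per consensus peak and a peak annotation, and whether duplicates were removed is not given in the sources used here. Count columns were matched to libraries by name, and 1 library of the labels, the 60 min one of the WT Firre line, was not analysed here.

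Of 145143 peaks, 129515 with enough counts (edgeR's filterByExpr, minimum 10) were tested with edgeR 4.0.16 in R 4.3.3: TMM scaling, a quasi-likelihood fit of 23 libraries with a block for each background and time, and the transgene at 0 min and later in each background (7 residual degrees of freedom). Pairs at 0 min have 1 library a line, so the spread comes from the later pairs. Later contrasts come from a fit of the 19 later libraries. Calls are at a Benjamini-Hochberg adjusted p of 0.05. CPM use the scaled library sizes. DESeq2 1.42.0, limma 3.58.1, other scalings, filters, designs and left-out libraries were alternatives. The fit was tested on simulated data.

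Named peaks are all Firre peaks, the called peaks at 0 min and, where a direction had no call, the 3 of smallest p. Peaks called later were added afterwards. The members and lists were chosen with earlier results of these data known.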

Additional observations from a re-analysis of the deposited data

Results flagged for a closer look

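A test of the difference between backgrounds passed for the mt-Tr peak at 0 min, at -8.13 ± 0.63 on the log2 scale for knockout minus wild type (edgeR adjusted p = 1.42e-24). The peak had 13.1 CPM in the KO Firre line, against 19.3 CPM in its control, and 1279 CPM in the WT Firre line, against 6.73 CPM in its control.

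A test of the difference between times passed for the Pde6d peak, at -1.15 ± 0.21 for 0 min minus 30 to 150 min (edgeR adjusted p = 0.0135). That call ended in 9 of 32 alternatives, DESeq2 among them. As stated above, the later values that chose the Pde6d peak are part of the test. The log2 difference of this peak at 0 min was 0.11 ± 0.27 in the knockout background and -0.39 ± 0.27 in the wild type background. Later it was 1.08 ± 0.11 and 0.93 ± 0.12.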

How the results depend on the processing

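Counts of calls stood as follows. For the mean at 0 min, against 2 with TMM, 1 peak was called with total counts, with a filter of 2 CPM, without the block for time, from the 4 libraries at 0 min alone, with limma-voom and with DESeq2, 0 with loess offsets and 3 in 1 fit with the backgrounds as replicates. Leaving out a library gave 0 (either wild type library at 0 min) to 4 (a knockout library at 0 min). The knockout background kept 0 calls in all alternatives. In the wild type background, against 4, calls were 1 with total counts, a filter of 2 CPM, no block and DESeq2. They were 2 with loess offsets and the promoter share as a covariate, and 4 without any 1 of 21 libraries. In either background its own 2 libraries at 0 min, on which the contrast rests, could not be left out. The difference between backgrounds kept 1 call throughout, with none of the 4 libraries at 0 min left out. The test of 0 min against later had 0 calls without the block and with DESeq2, 2 with total counts, loess offsets and the covariate, and 0 (without the KO control of 0 min) to 2 (without the WT control of 30 min) without 1 library. For the later contrasts, the knockout count of 942 was 1484 with loess offsets, 128 without the KO controls of 30 and 90 min and 9 with DESeq2, and 309 to 974 without 1 library. The wild type count of 91 was 23 with the covariate and 19 with DESeq2, and 34 to 125 without 1 library. The count for the mean of 192 was 94 with the covariate, 85 without the 2 KO controls and 20 with DESeq2, and 89 (without the WT Firre line of 90 min) to 194 without 1 library. Peaks nearly empty in 1 line of a pair were 4 with at least 20 counts in the other, and 0 with at least 30 or 50. Of the named peak results recomputed, none changed direction. Within a background at 0 min every alternative compares the same 2 libraries, so the direction there had little room to change. The cause of these shifts was not tested. With 1 library a line at 0 min, a difference as large as 2.28 ± 0.51 (Ctsl, knockout background) did not pass, so smaller ones may have gone undetected.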

Other observations

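There were 4 peaks with no count in any of the 6 libraries of the WT control line and a count in every library of the other 3 lines, a pattern chosen after the values were seen. No peak had this pattern with another line in that place. A peak near Gm18508 (10:28997735-28998078) had 21 counts in the WT Firre line at 0 min, against 0 in the WT control line, and 11 to 26 counts later in the Firre line. Its level was at least 40.9-fold higher than a floor of 3 counts over the 6 control libraries, 0.0681 CPM. A peak near Gm18972 (10:27892372-27892651) had 6 counts in the WT Firre line at 0 min, at least 11.7-fold higher. A pair of peaks near Gm7986 (12:72039803-72040296 and 12:72047819-72048076) had 8 and 9 counts, at least 15.6-fold and 17.5-fold higher, and both lie close to the intergenic Gm7986 peak that was lower in the WT Firre line.

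Some peaks had a larger difference at 0 min than later, and none of these passed. A peak near Gm11704 (11:115729849-115730949) had 5.03 CPM in the KO Firre line, against 2.57 CPM in its control, and 5.45 CPM in the WT Firre line, against 1.86 CPM in its control. On the log2 scale its difference at 0 min exceeded that at later times by 1.52 ± 0.35 (edgeR adjusted p = 0.524). A peak at the transcript end of Rev1, which encodes a translesion DNA polymerase (1:38074033-38074284), had 2.64 ± 0.64 (edgeR adjusted p = 0.849), with 18 counts in the KO Firre line, against 2 in its control, and 17 in the WT Firre line, against 5 in its control. An intronic peak of Gm4869 had 2.07 ± 0.48 (edgeR adjusted p = 0.57).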
